A study of Mus musculus with 12 samples.

Results

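Transcripts of 30 nuclear receptor genes, all outside the corticosteroid receptor pair, were followed in mouse hypothalamic neurospheres exposed to dexamethasone. The 30 genes were taken by symbol, and each matched 1 of the 40597 loci of the deposited table. Neurospheres are floating clusters of neural stem and progenitor cells, here grown from hypothalami of wild type C57Bl/6 fetuses (embryonic day 14.5). Male or female cultures at passage 3 were given the synthetic glucocorticoid dexamethasone at 100 nM for 4 hours, or ethanol in the same volume. There were 3 libraries each of male dexamethasone, male vehicle, female dexamethasone and female vehicle cultures, 12 in all. The labels call the 3 libraries of a group biological replicates without saying whether they came from separate litters or cultures, so p-values measure the spread between these libraries.

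Nuclear receptors are transcription factors that share a zinc-finger DNA-binding domain and, in most members, a pocket for a small lipid-soluble ligand. Retinoic acid receptors (RAR), liver X receptors (LXR), peroxisome proliferator-activated receptors (PPAR), the vitamin D receptor and thyroid hormone receptors bind DNA with a retinoid X receptor (RXR) as partner, whereas steroid receptors bind as pairs of themselves. Others, such as the COUP-TF and NR4A proteins and the estrogen-related receptors (ERR), act with no known classical hormone. Dexamethasone itself acts through the glucocorticoid receptor, another member of the same superfamily, and COUP-TF, ROR and retinoid receptors are known for roles in patterning and differentiation of the developing forebrain.

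The deposited unit was FPKM, fragments scaled to transcript length and library size, which allows levels to be compared between genes of different length. A library had 13755 to 14826 loci of at least 1 FPKM, and its protein-coding loci summed to 397412 to 453923 FPKM. FPKM hold no counts, so sequencing depth is unknown. In male dexamethasone library 2, 53.1% of all FPKM lay at loci without a gene name, and in male vehicle library 3 this was 75.0%, against 11.6% to 38.6% in the other 10 libraries. Male dexamethasone library 2 also held 14.1 FPKM of Xist, the RNA of the inactive X chromosome. Male vehicle library 2 held 3.04 FPKM, the remaining male libraries 0.0157 to 0.0466 FPKM and female libraries 136 to 328 FPKM. The 7 neural stem or progenitor markers examined all averaged at least 1 FPKM and summed to 5724 to 7388 FPKM in dexamethasone and 5975 to 7303 FPKM in vehicle libraries. No microglial marker of 6 and no pituitary marker of 6 reached a mean of 1 FPKM, and 1 of 6 endothelial, 1 of 6 mural or fibroblast and 3 of 8 neuronal markers did. The cultures responded to the hormone: Fkbp5, a glucocorticoid receptor co-chaperone gene, averaged 113 ± 24.3 FPKM in dexamethasone and 20.3 ± 3.96 FPKM in vehicle libraries (SD, n = 6 each; limma adjusted p = 1.98e-05). Of the 8 genes on the glucocorticoid check list 5 were called higher, Fkbp5, Tsc22d3, Klf9, Per1 and Zbtb16, and Sgk1, Nr3c1 and Nr3c2 were not called.

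Of the 30 receptor genes, 20 were expressed, with a 12-library mean of 1 FPKM or more, or 66.7%, against 49.9% of protein-coding loci. Only 6 exceeded 10 FPKM, and the median over the 20 expressed genes was 5.06 FPKM. The 2 genes nearest the threshold were Thrb, just inside with a mean of 1.22 FPKM, and Esrrb, just outside at 0.994 FPKM. After dexamethasone, none of the 20 expressed genes passed the test in the effect averaged over both sexes, where 1.53% of all 14931 tested loci did. A fit that took same-numbered libraries of a sex as pairs, which the labels do not state, called Nr2f2 and Rxra. They were among 804 loci called by that fit, against 229 loci in the main fit. On the log2(FPKM + 1) scale, the 2 genes with the largest differences in each direction were Rxra, which was higher in dexamethasone cultures, and Nr2f2, which was lower. This order depended on the scale. With 0.1 added in place of 1, Ppara (0.92) lay above Rxra (0.82), and Nr6a1 (-0.78) lay below Nr2f2 (-0.69). No female-male difference in the response, and no female-male difference in vehicle cultures, passed the test for any receptor gene.

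Promoter sequences of Rxra and Nr2f2 are shown because their differences in log2(FPKM + 1) were the largest in each direction. They come from RefSeq on build GRCm38.p6 and run from 250 bases before to 50 bases after an annotated start, and RefSeq held 2 such windows for Rxra and 1 for Nr2f2. Capitals mark AGGTCA, the half-site that many nuclear receptors bind, on either strand.
Rxra, first start, chr2:27676951-27677250, plus strand: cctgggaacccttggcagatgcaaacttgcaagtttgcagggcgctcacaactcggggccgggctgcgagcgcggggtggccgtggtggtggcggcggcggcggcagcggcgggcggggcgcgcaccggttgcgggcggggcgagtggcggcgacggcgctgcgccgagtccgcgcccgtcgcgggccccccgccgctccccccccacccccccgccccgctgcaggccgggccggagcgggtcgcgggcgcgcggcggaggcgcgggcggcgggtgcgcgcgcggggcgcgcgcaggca
Rxra, second start, chr2:27709042-27709341, plus strand: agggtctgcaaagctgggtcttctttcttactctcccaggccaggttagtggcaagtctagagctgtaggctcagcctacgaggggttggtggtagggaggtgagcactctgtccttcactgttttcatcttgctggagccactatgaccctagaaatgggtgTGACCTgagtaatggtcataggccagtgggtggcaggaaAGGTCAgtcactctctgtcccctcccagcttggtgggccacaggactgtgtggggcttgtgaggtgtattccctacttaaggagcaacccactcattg
Nr2f2, chr7:70366697-70366996, minus strand: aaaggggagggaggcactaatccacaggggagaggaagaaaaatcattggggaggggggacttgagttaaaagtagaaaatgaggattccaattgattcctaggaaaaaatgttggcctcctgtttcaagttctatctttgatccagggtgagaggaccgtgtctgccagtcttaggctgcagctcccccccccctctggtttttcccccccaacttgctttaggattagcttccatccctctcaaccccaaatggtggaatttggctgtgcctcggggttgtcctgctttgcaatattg
The first Rxra window was 83.0% G or C with an observed-over-expected CpG ratio of 1.08, and the second was 54.3% G or C with a ratio of 0.0459. The second Rxra window held 2 AGGTCA half-sites, one of them within AAAGGTCA, the 8-base element known as NBRE that NR4A proteins bind, while the first Rxra window and the Nr2f2 window held none. The FPKM of a locus sum over its starts, so the table does not show which Rxra start was in use.

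All 30 receptor genes had at least 1 RefSeq window, 49 windows in all among 32851 of the same length. AGGTCA on either strand was found in 16.3% of the receptor windows and in 16.3% of all windows. AAAGGTCA, which contains AGGTCA, was found in 2 of the 49 windows, those of Rxra and Rxrg, which is 4.08% against 1.51% of all windows. AGAACA, a glucocorticoid receptor half-site, was found on either strand in 4.08% of receptor windows, in Esrrb and Thrb, against 18.97% of all windows. The full palindromic glucocorticoid response element, AGAACA facing its reverse complement across 3 bases, was found in none of the receptor windows and in 0.0091% of all windows. Receptor windows had a median of 60.3% G or C against 52.7% over all windows, so the letter composition differed as well. A missing match says only that these letters are not in these 300 bases.

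**Figure D1:**
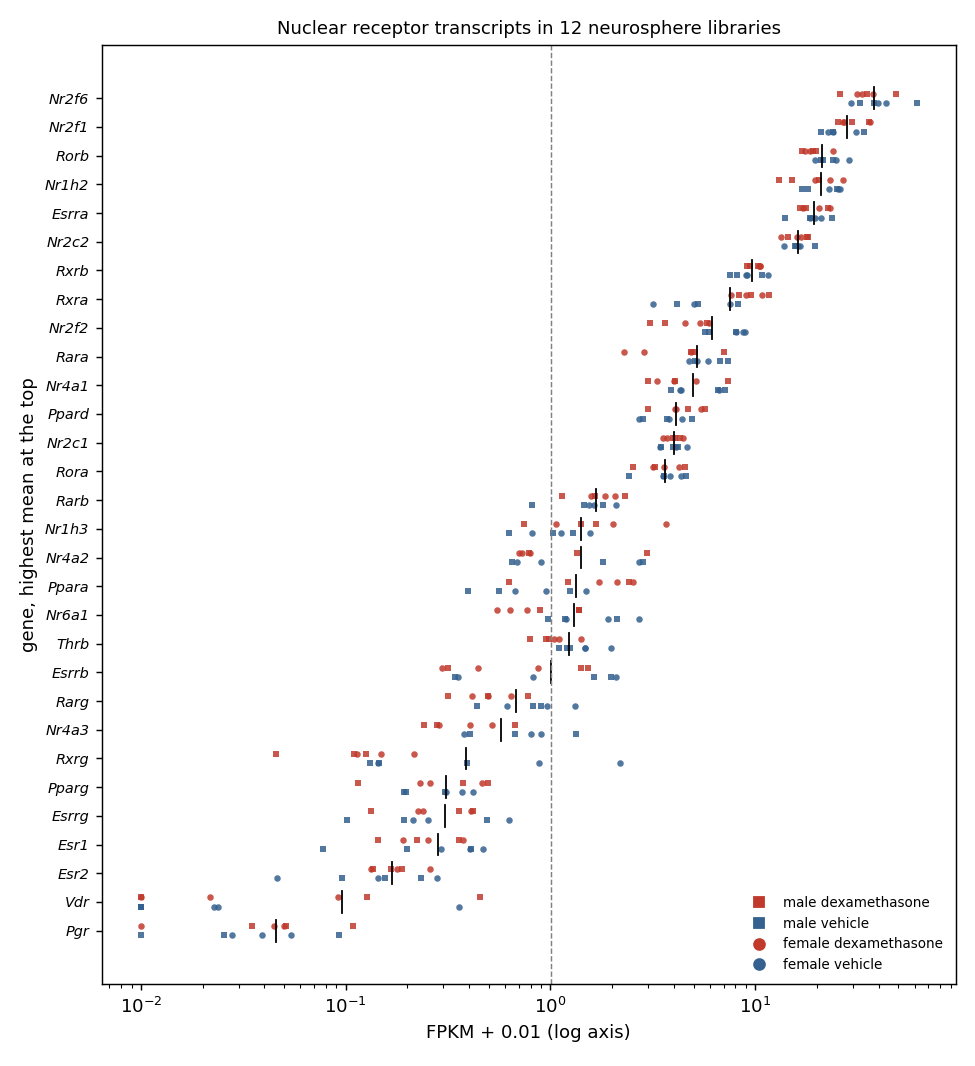
FPKM of each of the 30 receptor genes (rows, highest mean at the top) on a log axis after adding 0.01, with 1 symbol per library; squares are male and circles female cultures, red is dexamethasone and blue vehicle, black ticks are means over 12 libraries and the dashed line marks 1 FPKM. Nr2f6 leads at a mean of 37.99 FPKM, 20 genes lie above the line on average, and Pgr is lowest at 0.0358 FPKM.

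The 6 genes above 10 FPKM came from the COUP-TF, ROR, LXR, ERR and testicular receptor groups, as the plot of levels by library shows. Nr2f6 (chromosome 8, 71371298 to 71381960), which encodes the COUP-TF relative EAR2, had the highest mean, 37.99 ± 9.64 FPKM (SD, n = 12). Nr2f1 (chromosome 13, 78188865 to 78279391), which encodes COUP-TFI, a regulator of cortical and hippocampal patterning, followed at 28.1 ± 5.19 FPKM. Rorb, an orphan receptor gene known from retinal and cortical neurons, averaged 21.3 ± 3.44 FPKM, and Nr1h2, which encodes the oxysterol sensor LXR-beta, 21.02 ± 4.51 FPKM. Esrra, which encodes ERR-alpha, a regulator of mitochondrial energy genes, averaged 19.4 ± 2.92 FPKM, and Nr2c2, which encodes testicular receptor 4, 16.1 ± 1.78 FPKM. Rorb, Nr1h2 and Esrra lay within 1 SD of one another, and the ranges over libraries overlapped between neighbours in this order. The next genes were Rxrb at 9.68 ± 1.16 FPKM, Rxra at 7.51 ± 2.64 FPKM and Nr2f2, which encodes COUP-TFII, at 6.14 ± 1.93 FPKM. All Nr2c2 values, 13.4 FPKM or more, lay above all Rxrb values, 11.5 FPKM or less, while Rxra overlapped both Rxrb and Nr2f2.

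Within most subfamilies, 1 gene supplied most of the transcript. Esrra held 93.8% of the summed mean FPKM of the 3 ERR genes, and Nr1h2 held 93.7% of that of the 2 LXR genes. Nr4a1, an immediate early gene of the NR4A group, held 71.8% of the NR4A sum, and Ppard, a broadly expressed sensor of fatty acids, held 71.7% of the PPAR sum. Rara held 68.9% of the RAR sum, with Rarb at 22.1% and Rarg at 8.97%. The RXR sum was shared between Rxrb at 55.1% and Rxra at 42.8%, with Rxrg at 2.14%. The COUP-TF sum was also shared, between Nr2f6 at 52.6% and Nr2f1 at 38.9%, with Nr2f2 at 8.49%.

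The 10 genes below a mean of 1 FPKM included every classical sex steroid receptor in the set. Esr1, the estrogen receptor alpha gene, ranged from 0.0677 to 0.458 FPKM over the 12 libraries, Esr2 from 0.0364 to 0.268 FPKM, and the progesterone receptor gene Pgr from 0 to 0.0992 FPKM. Vdr, the vitamin D receptor gene, ranged from 0 to 0.445 FPKM, and it and Pgr were the 2 genes listed at 0 in some library. Pparg, known for its role in fat cell formation, averaged 0.300 FPKM and Esrrg 0.295 FPKM. These 6 genes reached 1 FPKM in no library. Rarg, Nr4a3 and Rxrg each reached 1 FPKM in 1 library, and averaged 0.671, 0.564 and 0.376 FPKM. A listed 0 may stand for an estimate that failed, and these low levels were not tested.

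**Figure D2:**
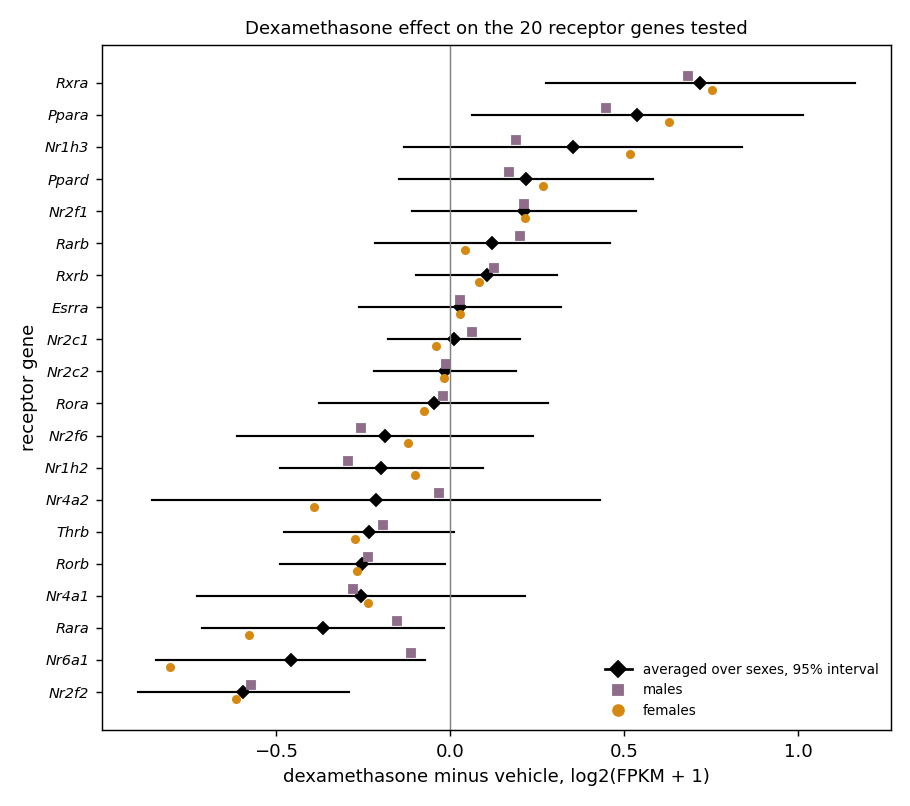
Difference between dexamethasone and vehicle cultures in log2(FPKM + 1) for the 20 receptor genes tested, ordered by size; diamonds are the effect averaged over the sexes with its 95% interval, squares the male and circles the female effect. The values run from 0.72 for Rxra at the top to -0.59 for Nr2f2 at the bottom.

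The comparison of dexamethasone with vehicle asks which receptor genes change within 4 hours of glucocorticoid exposure. The test, limma on log2(FPKM + 1), ran over the 14931 loci that averaged 1 FPKM or more, and p-values were adjusted over all of them by Benjamini-Hochberg. Averaged over the sexes, 0 of 20 receptor genes were called at an adjusted p under 0.05, 9 differences were positive and 11 were negative. Their median difference was -0.03, against -0.01 over all tested loci. At an unadjusted p under 0.05 there were 6 genes, Rxra, Ppara, Nr2f2, Nr6a1, Rara and Rorb, where 13.6% of all tested loci reached this. In males 0 of 20 were called (0.315% of all loci), with 2 at an unadjusted p under 0.05 (6.38% of all loci). In females 0 of 20 were called (0.482% of all loci), with 4 at an unadjusted p under 0.05 (8.02% of all loci). The half-width of the 95% interval of the averaged difference was between 0.19 and 0.64 on the log2 scale, with a median of 0.33. Differences smaller than their half-width could not be called, and larger ones could also go uncalled because p-values were adjusted over all tested loci. Ppara and Nr6a1 averaged under 1 FPKM in one treatment, at 0.876 FPKM in vehicle and 0.923 FPKM in dexamethasone libraries, and so passed the filter through the other treatment.

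Rxra (chromosome 2, 27676430 to 27763005) encodes RXR-alpha, a shared partner of RAR, LXR, PPAR, vitamin D and thyroid hormone receptors. It had 9.49, 8.33 and 11.6 FPKM in male dexamethasone cultures, against 4.16, 5.23 and 8.27 FPKM in male vehicle cultures. In females it had 7.60, 10.7 and 9.02 FPKM with dexamethasone, against 3.14, 7.51 and 4.99 FPKM with vehicle. Within each sex every dexamethasone library lay above every vehicle library, although male vehicle library 3, at 8.27 FPKM, came close to male dexamethasone library 2, at 8.33 FPKM. Of all tested loci, 2.08% separated in this way and direction in both sexes, and among the 20 receptor genes Rxra was the only one. The averaged difference was 0.72 on the log2 scale (SE 0.20, 95% interval 0.27 to 1.16, adjusted p = 0.145), and the mean FPKM was 1.71 times that of vehicle libraries. The male difference of 0.68 and the female difference of 0.75 each had an SE of 0.28. Without male dexamethasone library 2 and male vehicle library 3, the libraries with the largest unnamed share, the averaged difference was 0.89 (adjusted p = 0.142). Rxra was called only in the fit that took same-numbered libraries of a sex as pairs, which the labels do not state. That fit called 804 loci, against 229 in the main fit.

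The paralog Rxrb showed less difference. It averaged 10.03 ± 0.623 FPKM in dexamethasone and 9.33 ± 1.52 FPKM in vehicle libraries (SD, n = 6 each), an averaged difference of 0.11 with a 95% interval of -0.10 to 0.31. The ratio of Rxra to Rxrb within a library, a measure chosen after the values were seen and not tested, ranged from 0.722 to 1.28 with a median of 0.905 in dexamethasone libraries and from 0.349 to 0.771 with a median of 0.601 in vehicle libraries. The ranges overlapped, and the summed FPKM of the 3 RXR genes overlapped too, with 17.8 to 21.4 in dexamethasone and 12.6 to 21.2 in vehicle libraries.

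Ppara (chromosome 15, 85734983 to 85803568) encodes PPAR-alpha, a fatty acid sensor known for driving fatty acid oxidation in liver. It had 2.42, 0.616 and 1.21 FPKM in male dexamethasone cultures, against 0.549, 0.385 and 1.24 FPKM in male vehicle cultures. In females it had 1.72, 2.11 and 2.51 FPKM with dexamethasone, against 0.944, 1.48 and 0.664 FPKM with vehicle. The female groups did not overlap and the male groups did. The averaged difference was 0.54 (SE 0.21, 95% interval 0.06 to 1.014, adjusted p = 0.310). Ppard averaged 4.48 ± 0.989 FPKM in dexamethasone and 3.71 ± 0.853 FPKM in vehicle libraries, a difference of 0.22 (SE 0.16).

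Nr2f2 (chromosome 7, 70351946 to 70366749) encodes COUP-TFII, which is known for roles in ventral forebrain and vascular development. It had 3.05, 3.63 and 5.81 FPKM in male dexamethasone cultures, against 5.66, 5.96 and 8.02 FPKM in male vehicle cultures. In females it had 5.34, 4.503 and 5.97 FPKM with dexamethasone, against 8.69, 8.92 and 8.09 FPKM with vehicle. The female groups did not overlap, and in males dexamethasone library 3 lay above vehicle library 1. The averaged difference was -0.59 (SE 0.14, 95% interval -0.90 to -0.29, adjusted p = 0.073), the lowest adjusted p among the receptor genes, and the mean FPKM was 0.624 times that of vehicle libraries. Without male dexamethasone library 3, Nr2f2 was called, with a difference of -0.70 (adjusted p = 0.0138). Without the 2 libraries with the largest unnamed share it was -0.49 (adjusted p = 0.305). In the fit that took same-numbered libraries of a sex as pairs, which the labels do not state, Nr2f2 was called. It was among 804 loci called there, against 229 in the main fit. B130024G19Rik lies on the other strand of the Nr2f2 locus. The library kit was stranded, but no source used here gives the strand setting of the quantification, so reads of such pairs cannot be told apart. The same holds for Nr2f6 with Ocel1, Nr2c2 with Mrps25, Rarb with Top2b and Nr6a1 with Nr6a1os.

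The other 2 COUP-TF genes differed less from vehicle. Nr2f1 averaged 30.2 ± 4.75 FPKM in dexamethasone and 26.0 ± 5.12 FPKM in vehicle libraries (SD, n = 6 each), a difference of 0.21 with a 95% interval of -0.11 to 0.54. Nr2f6 averaged 35.3 ± 7.69 FPKM in dexamethasone and 40.7 ± 11.3 FPKM in vehicle libraries, a difference of -0.19 with a 95% interval of -0.61 to 0.24. The ratio of Nr2f2 to Nr2f1 within a library, also chosen after the values were seen and not tested, was 0.120 to 0.199 with a median of 0.163 in dexamethasone libraries and 0.237 to 0.383 with a median of 0.286 in vehicle libraries. Every dexamethasone library lay below every vehicle library in this ratio, both sexes pooled. Nr2f2 and Nr2f1 differed from vehicle in opposite directions, and how often ratios of other gene pairs separate was not examined. The Nr2f1 locus of the table spans 90527 bases and holds the antisense gene A830082K12Rik, whereas Nr2f1 itself spans 10785 bases in GENCODE M21, so its FPKM may include antisense RNA.

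**Figure D3:**
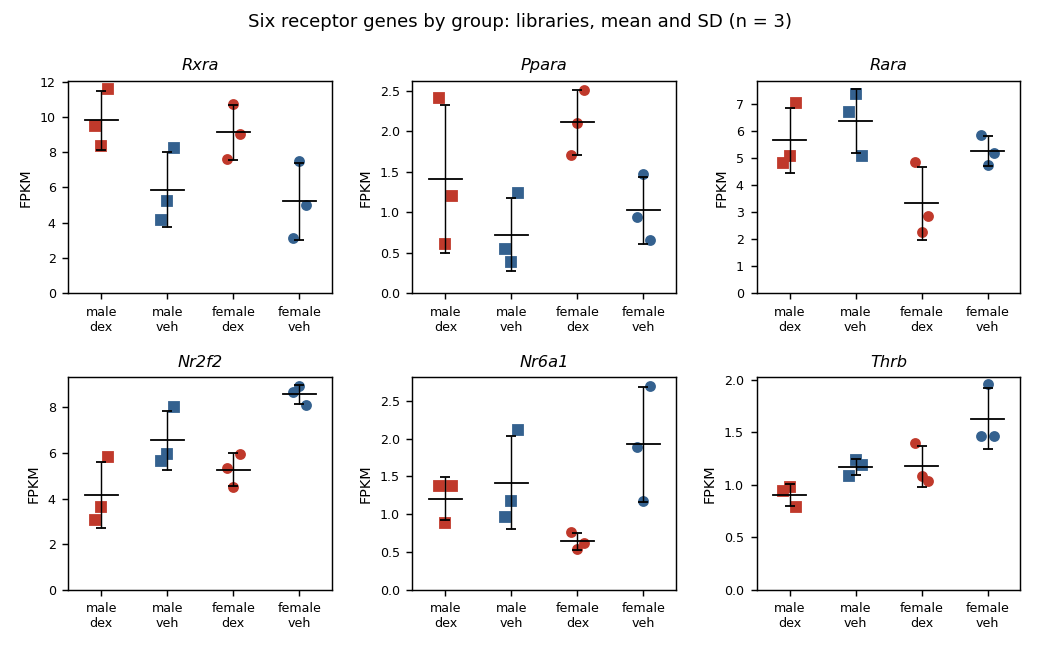
FPKM in each library of Rxra, Ppara, Rara, Nr2f2, Nr6a1 and Thrb, by sex and treatment, with the mean (line) and SD (bars) of 3 libraries; dex is dexamethasone and veh is vehicle. Rxra lies between 7.60 and 11.6 FPKM with dexamethasone and between 3.14 and 8.27 FPKM with vehicle, and Nr2f2 between 3.05 and 5.97 FPKM with dexamethasone and between 5.66 and 8.92 FPKM with vehicle.

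**Figure D4:**
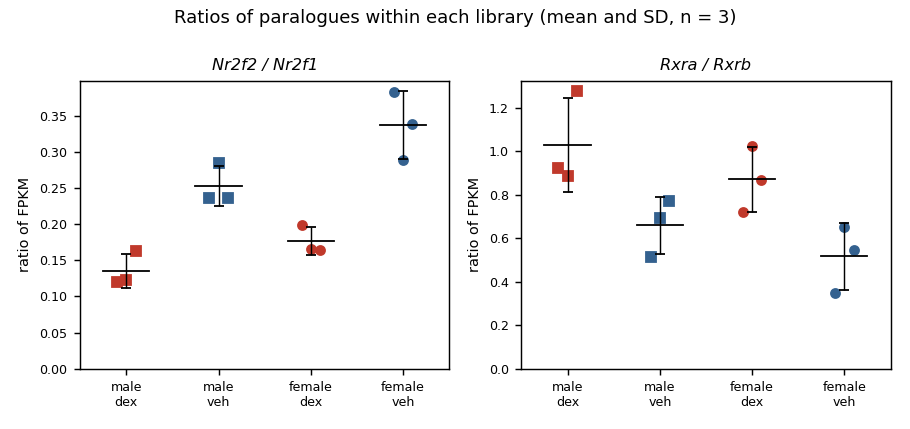
Ratio of FPKM between paralogs in each library, Nr2f2 over Nr2f1 on the left and Rxra over Rxrb on the right, by sex and treatment, with the mean (line) and SD (bars) of 3 libraries. The Nr2f2 ratio is at most 0.199 with dexamethasone and at least 0.237 with vehicle, while the Rxra ratios of the treatments overlap. Both ratios were chosen after the values were seen and were not tested.

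Nr6a1 and Rara had larger negative differences in females than in males, but the difference between the sexes did not pass the test for either gene. Nr6a1, which encodes germ cell nuclear factor, a repressor of pluripotency genes, had 0.759, 0.539 and 0.624 FPKM in female dexamethasone cultures, against 1.89, 1.18 and 2.70 FPKM in female vehicle cultures. In males it had 1.37, 0.879 and 1.37 FPKM with dexamethasone, against 0.959, 1.17 and 2.11 FPKM with vehicle. The female groups did not overlap and the male groups did. Its difference was -0.80 in females (SE 0.24, adjusted p = 0.346) and -0.11 in males (SE 0.24), and the female minus male effect was -0.69 (SE 0.35, adjusted p = 1).

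Rara encodes retinoic acid receptor alpha. It had 4.85, 2.28 and 2.85 FPKM in female dexamethasone cultures, against 5.87, 4.75 and 5.19 FPKM in female vehicle cultures, and these groups overlapped at a single library. In males it had 4.83, 5.09 and 7.04 FPKM with dexamethasone, against 6.70, 7.38 and 5.07 FPKM with vehicle, and the groups overlapped. The averaged difference was -0.36 (SE 0.16, adjusted p = 0.344). Rarb, itself a classical retinoic acid target gene, averaged 1.76 ± 0.410 FPKM in dexamethasone and 1.55 ± 0.428 FPKM in vehicle libraries (SD, n = 6 each), a difference of 0.12 (SE 0.15).

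Thrb and Rorb lay slightly lower with dexamethasone. Thrb, the thyroid hormone receptor beta gene, had 0.938, 0.979 and 0.784 FPKM in male dexamethasone cultures, against 1.09, 1.24 and 1.19 FPKM in male vehicle cultures. In females it had 1.40, 1.09 and 1.03 FPKM with dexamethasone, against 1.46, 1.96 and 1.46 FPKM with vehicle. It was the only receptor gene whose groups did not overlap in either sex with dexamethasone lower, as 1.39% of all tested loci did, and its averaged difference was -0.23 (SE 0.11, adjusted p = 0.382). Rorb averaged 19.3 ± 2.47 FPKM in dexamethasone and 23.2 ± 3.28 FPKM in vehicle libraries (SD, n = 6 each), a difference of -0.25 (SE 0.11, adjusted p = 0.338). Its male groups did not overlap and its female groups did. Counted within one sex, 1 receptor gene (Rxra) lay higher without overlap in males (5.73% of all tested loci) and 2 (Thrb and Rorb) lower (6.15%). In females 2 (Rxra and Ppara) lay higher (6.95%) and 3 (Nr2f2, Nr6a1 and Thrb) lower (5.82%). Of these, Ppara and Nr6a1 passed the filter on level only through the treatment in which they were higher.

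The remaining expressed receptors had averaged differences between -0.26 and 0.35. Nr4a1, which many stimuli induce within the hour, averaged 4.47 ± 1.60 FPKM in dexamethasone and 5.47 ± 1.46 FPKM in vehicle libraries (SD, n = 6 each), a difference of -0.26 (SE 0.21). Nr4a2, which is required for midbrain dopamine neurons, ranged from 0.693 to 2.94 FPKM in dexamethasone and from 0.635 to 2.82 FPKM in vehicle libraries, with the high and low libraries spread over both treatments. Nr1h3, which encodes LXR-alpha and shares its locus with Gm13783, ranged from 0.731 to 3.64 FPKM in dexamethasone and from 0.621 to 1.56 FPKM in vehicle libraries (difference 0.35, SE 0.22). Without female dexamethasone library 1, which held the 3.64 FPKM, the difference was 0.20. Nr1h2 averaged 19.7 ± 4.99 FPKM in dexamethasone and 22.4 ± 3.93 FPKM in vehicle libraries, a difference of -0.20 (SE 0.13). Nr2c1 and Nr2c2, the testicular receptor genes, had averaged differences of 0.01 and -0.01 with 95% intervals of -0.18 to 0.20 and -0.22 to 0.19. Esrra differed by 0.03 (95% interval -0.26 to 0.32) in a locus that also holds a microRNA and overlaps Prdx5 and Trmt112. Rora, a receptor of circadian and cerebellar function, differed by -0.05 (95% interval -0.38 to 0.28).

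Esrrb, an ERR gene known from pluripotent stem cells, lay just under the threshold and varied among libraries of one treatment. It had 0.305, 1.40 and 1.51 FPKM in male dexamethasone cultures, against 0.331, 1.62 and 1.96 FPKM in male vehicle cultures. In females it had 0.433, 0.286 and 0.857 FPKM with dexamethasone, against 0.813, 0.345 and 2.07 FPKM with vehicle. In males the library numbered 1 was the low one under both treatments, and the treatments overlapped in each sex.

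Between the sexes without hormone, 0 of 20 receptor genes were called, where 0.0737% of all tested loci were, and 0 had an unadjusted p under 0.05, where 4.88% did. The interaction called 0 of 20 receptor genes, where 0.0335% of loci were called, and 0 had an unadjusted p under 0.05, where 1.47% did. Among vehicle cultures the female libraries lay above every male library for Nr2f2, at 8.09 to 8.92 FPKM in females against 5.66 to 8.02 FPKM in males, and for Thrb, at 1.46 to 1.96 FPKM in females against 1.09 to 1.24 FPKM in males. Of all tested loci 5.67% separated in this direction, and 3.54% with females lower, as 0 receptor genes did. The log2 difference was 0.35 (SE 0.19) for Nr2f2 and 0.27 (SE 0.15) for Thrb, each at an adjusted p of 0.892.

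Other genes of the receptor pathways were examined as lists, of which the thyroid hormone list and the remaining nuclear receptors held called genes. Of 17 other nuclear receptor genes, 6 were tested and 1 was called. That gene, Nr2e1 (the tailless receptor of neural stem cells), averaged 3.85 ± 0.973 FPKM in dexamethasone and 6.17 ± 0.9755 FPKM in vehicle libraries (SD, n = 6 each; log2 difference -0.57, adjusted p = 0.0475). Leaving out 1 library at a time, the call held for 2 of the 12 (female vehicle 1, female dexamethasone 3) and was lost for each of the others, with an adjusted p of 0.0599 to 0.125. Thra, the thyroid hormone receptor alpha gene, had the highest level of that list, 71.3 ± 18.4 FPKM in dexamethasone and 56.3 ± 16.2 FPKM in vehicle libraries (difference 0.34, adjusted p = 0.449). Nr1d2, a circadian repressor gene, averaged 7.11 ± 1.15 FPKM in dexamethasone and 7.51 ± 1.05 FPKM in vehicle libraries.

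Of 12 genes of thyroid hormone handling and response, 4 were tested, 2 were called higher and 0 lower. Klf9, a zinc-finger factor gene that is also on the glucocorticoid check list, averaged 31.0 ± 2.198 FPKM in dexamethasone and 7.04 ± 0.782 FPKM in vehicle libraries (difference 2.00, adjusted p = 4.44e-07). Thrsp, a lipogenic gene, averaged 22.7 ± 14.7 FPKM in dexamethasone and 3.78 ± 2.13 FPKM in vehicle libraries (difference 2.201, adjusted p = 0.0111).

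In the LXR, PPAR, retinoid and ERR lists no gene was called. None of 8 tested LXR targets, 12 tested PPAR targets or 3 tested retinoid handling genes passed, nor any of 11 tested ERR partners and targets, and their median differences were 0.04, -0.10, -0.02 and 0.09. Apoe and Scd2 were the highest LXR targets, at 565 ± 371 and 555 ± 47.6 FPKM in dexamethasone and 666 ± 491 and 570 ± 63.4 FPKM in vehicle libraries. Acadl, a gene of fatty acid oxidation, was the highest PPAR target, at 83.7 ± 17.0 FPKM in dexamethasone and 87.8 ± 17.6 FPKM in vehicle libraries. Of the retinoid genes Aldh1a3, which makes retinoic acid, was highest at 2.75 ± 1.72 FPKM in dexamethasone and 5.65 ± 3.59 FPKM in vehicle libraries (difference -0.76, SE 0.41, adjusted p = 0.440), and Rdh10 averaged 3.80 ± 0.583 FPKM in dexamethasone and 3.88 ± 0.670 FPKM in vehicle libraries. The highest ERR targets were Atp5b and Cs, at 1755 ± 127 and 214 ± 12.8 FPKM in dexamethasone and 1608 ± 72.2 and 211 ± 7.84 FPKM in vehicle libraries.

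Of 6 tested genes each of sex steroid handling and of activity-induced early response, 0 were called, and no vitamin D gene was expressed enough to be tested. Hsd17b12 and Hsd17b4, steroid and fatty acid enzymes, averaged 156 ± 14.3 and 118 ± 8.16 FPKM in dexamethasone and 158 ± 15.3 and 98.7 ± 7.63 FPKM in vehicle libraries, with Hsd17b4 at a difference of 0.26 (adjusted p = 0.116). Egr1 and Fos, early response genes, averaged 16.4 ± 6.21 and 18.0 ± 4.85 FPKM in dexamethasone and 22.8 ± 9.22 and 20.7 ± 7.15 FPKM in vehicle libraries.

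Markers of other cell types overlapped between the treatments as summed levels. Astrocytic markers summed to 60.3 to 252 FPKM in dexamethasone and 59.7 to 200 FPKM in vehicle libraries, and oligodendrocyte lineage markers to 330 to 436 FPKM in dexamethasone and 338 to 423 FPKM in vehicle libraries. Neuronal markers summed to 8.46 to 13.4 FPKM in dexamethasone and 8.06 to 16.5 FPKM in vehicle libraries. One of these markers was called, Cspg4, at 21.7 ± 3.29 FPKM in dexamethasone and 12.3 ± 1.43 FPKM in vehicle libraries (SD, n = 6 each; adjusted p = 0.0114), and its part in the receptor values was not tested. In whole cultures, fewer cells of a type and less RNA per cell cannot be told apart.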

How the data were processed

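The deposited table gave FPKM per locus and library, made by the authors from stranded total RNA libraries. The submitters' processing notes name GRCm38, Cuffdiff (version 2.2.1), Cufflinks (version 2.2.1) and TopHat2 (version 2.0.9). No source used here gives the annotation, the strand setting or how libraries were scaled. Loci were matched by gene name, joined loci included, and starts were converted to count from 1.

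limma (version 3.58.1, R 4.3.3) was run on log2(FPKM + 1) of the loci averaging 1 FPKM or more (1 mean per group, eBayes with trend, two-sided, Benjamini-Hochberg adjustment over all tested loci, calls under 0.05). Differences on this scale understate changes of low genes. The code was tested on simulated data. Low values gave no usable relative depth (4 to 11 loci per library in the leading cluster). No 2 library columns were identical.

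Same-numbered dexamethasone and vehicle libraries were not treated as pairs, since the labels do not say that a number marks a shared culture. Alternatives were another pseudocount, other filters, median-of-ratios and quantile scaling, a replicate block, and leaving out libraries. The members and lists were chosen with earlier results of these data known. The text covers all 30 members, and of each pathway list the called genes and the 2 of highest level, with the 8 glucocorticoid check genes. One gene that this rule would name is not reported here. The ratios between paralogs and the leave-out of 2 libraries together were chosen after the values were seen. Of the lists, Perm1 and Sts had no matching locus.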

Additional observations from a re-analysis of the deposited data

Results flagged for a closer look

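Among the 6 libraries of a treatment, both sexes pooled, 4 of 60 sets of values held a library far from the others by Dixon's test, which flags about 1 set in 20 by chance. Nr4a2 stood at 2.94 FPKM in male dexamethasone library 2, against 0.693 to 1.33 FPKM in the other dexamethasone libraries. In the same library Vdr stood at 0.445 FPKM, against 0 to 0.117 FPKM in the others. Male dexamethasone library 2 also had the highest Xist among male libraries and a high share of FPKM at unnamed loci, and the part of this in the values was not tested. Vdr stood at 0.347 FPKM in female vehicle library 3, against at most 0.0137 FPKM in the other vehicle libraries. Rxrg, which encodes RXR-gamma, stood at 2.17 FPKM in female vehicle library 2, against 0.121 to 0.872 FPKM in the other vehicle libraries. These genes are near or below 1 FPKM, and all 4 flags were single high libraries.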

How the results depend on the processing

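Of the 20 receptor genes tested, 16 kept the direction of the averaged difference in each alternative that gave a value. With the replicate number as a block, 2 receptor genes were called in the averaged effect, Nr2f2 (-0.59, adjusted p = 0.0192) and Rxra (0.72, adjusted p = 0.0274), among 804 loci, against 229 loci without the block. The labels do not say that the numbers pair libraries. Same-numbered libraries of a sex correlated at 0.082 to 0.167 in their deviations from group means, not all above 0.1. Within its sex, each library correlated best with the library of its own number in the other treatment. Same-numbered libraries of different sexes correlated at -0.013 to 0.043. Leaving out 1 library gave 0 to 1 called receptor genes in the averaged effect, the 1 being Nr2f2 without male dexamethasone library 3. In males, in females, for the interaction and between the sexes in vehicle cultures, 0 were called in each alternative, the block and the fits of 1 sex alone included. Without male dexamethasone library 2 and male vehicle library 3 together, a choice made after seeing the data, 0 were called in each comparison. The differences that changed sign were all small. Leaving out 1 library, Nr2c1 ranged from -0.035 to 0.055, Nr2c2 from -0.052 to 0.0365, Rora from -0.1408 to 0.0373 and Esrra from -0.0622 to 0.116. Other uncalled differences kept their sign but moved by over 1.5 times without some single library: Nr1h2 from -0.28 to -0.11, Nr2f6 from -0.30 to -0.06, Nr4a1 from -0.41 to -0.14, Nr4a2 from -0.38 to -0.04, Ppard from 0.14 to 0.32, Rarb from 0.03 to 0.20 and Rxrb from 0.06 to 0.17, with Nr1h3 at 0.20 without female dexamethasone library 1. Rora was 0.0029 with quantile normalization. Without both named libraries Nr2c2 was 0.0864, Rora 0.1138 and Esrra -0.0318. Nr2e1 was not called with no filter, with a minimum mean of 5 FPKM, with quantile normalization or without both named libraries (adjusted p = 0.0968, 0.0742, 0.0702 and 0.127). The cause was not tested. With no filter, 0 of all 30 receptor genes were called. Depth is unknown, and low genes are limited by the pseudocount.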
